A study of Danio rerio with 6 samples.

Results

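Genes of cilium assembly and motility were examined in whole zebrafish embryos at 18hpf, comparing wildtype control embryos with homozygous *hoxb1b*-/- mutants. The members were the 65 rows, of 13466 in the deposited count table, whose symbol begins with dnah, dnai1, dnai2, dnaaf, dnal, ift or bbs followed by a digit, rsph, foxj1, rfx1 to rfx7, kif3, tekt, spag, ccdc39, ccdc40, ccdc103 or ttc. The rule reads symbols and no measured value, but it was set with earlier results of these data known. The mutants carry the um197 allele of *hoxb1b*, which encodes a Hox transcription factor of the early hindbrain, and the wildtype embryos carry no mutation named in the labels. No transgene or treatment is named for either genotype. RNA was taken from pools of embryos freed of chorion and yolk, and 3 libraries were made per genotype. Homozygous mutants are viable.

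Cilia are microtubule projections that grow from a basal body. Their parts are carried in and out by intraflagellar transport (IFT), which kinesin-2 drives toward the tip, and the BBSome moves membrane proteins along the same track. Motile cilia add dynein arms, radial spokes and a central pair, and Foxj1 and Rfx transcription factors switch on many of the genes for these parts. In the zebrafish embryo, motile cilia of the Kupffer's vesicle drive the fluid flow that sets the left-right axis. Motile cilia also line the floor plate and the pronephros. Of the 65 members, 50 were assigned a ciliary role, and 15 share a TTC (tetratricopeptide repeat) or SPAG (sperm-associated antigen) symbol without one.

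Total counts lay between 19139322 and 29146812 per library, and beyond counting noise the libraries of a genotype varied by an estimated 1.85% (coefficient of variation). The labels do not say if replicate libraries had separate pools, so p-values measure only the spread between these libraries, which may be technical. Of 25 listed markers of embryonic tissues, 24 are in the deposited table. That table is labelled as one of detected genes, so their presence does not check the samples. Expression of *hoxb1b* was not lower in the mutant libraries, at 84.4 ± 0.787 against 69.1 ± 2.37 CPM (counts normalized to library size; SD, n = 3 each), so it does not check the labels by a loss of transcript. Expression is given below as CPM, and each log2 fold change compares mutant with wildtype and has a standard error (SE). CPM is not divided by transcript length, so levels of different genes are not compared.

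All 65 members passed the expression filter, with mean levels from 0.525 to 117 CPM. Their changes were small. At an adjusted p under 0.05 (edgeR's quasi-likelihood test) and a change above 2-fold, 1 member was called, the dynein assembly gene *dnaaf2*, which fell in the mutants. Among all 12471 tested genes, 8.36% were called by this rule, 1.7% higher and 6.66% lower. With no limit on the size, 32 members were called, 21 higher and 11 lower in the mutants, and 33 were not. These 32 are 49.2% of the members, whereas 66.2% of all tested genes were called, 32.6% higher and 33.6% lower. Of the 32 called members, 25 changed by less than 0.5 on the log2 scale. The median log2 fold change was 0.07 over the members and -0.0034 over all tested genes. The 50 members with a ciliary role had the same median of 0.07, with 15 higher and 8 lower. In 36 members (55.4%) the genotypes did not overlap, with the mutants higher in 23 and lower in 13. The same held for 68.1% of all tested genes, 33.7% with the mutants higher and 34.5% with them lower.

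**Figure D1:**
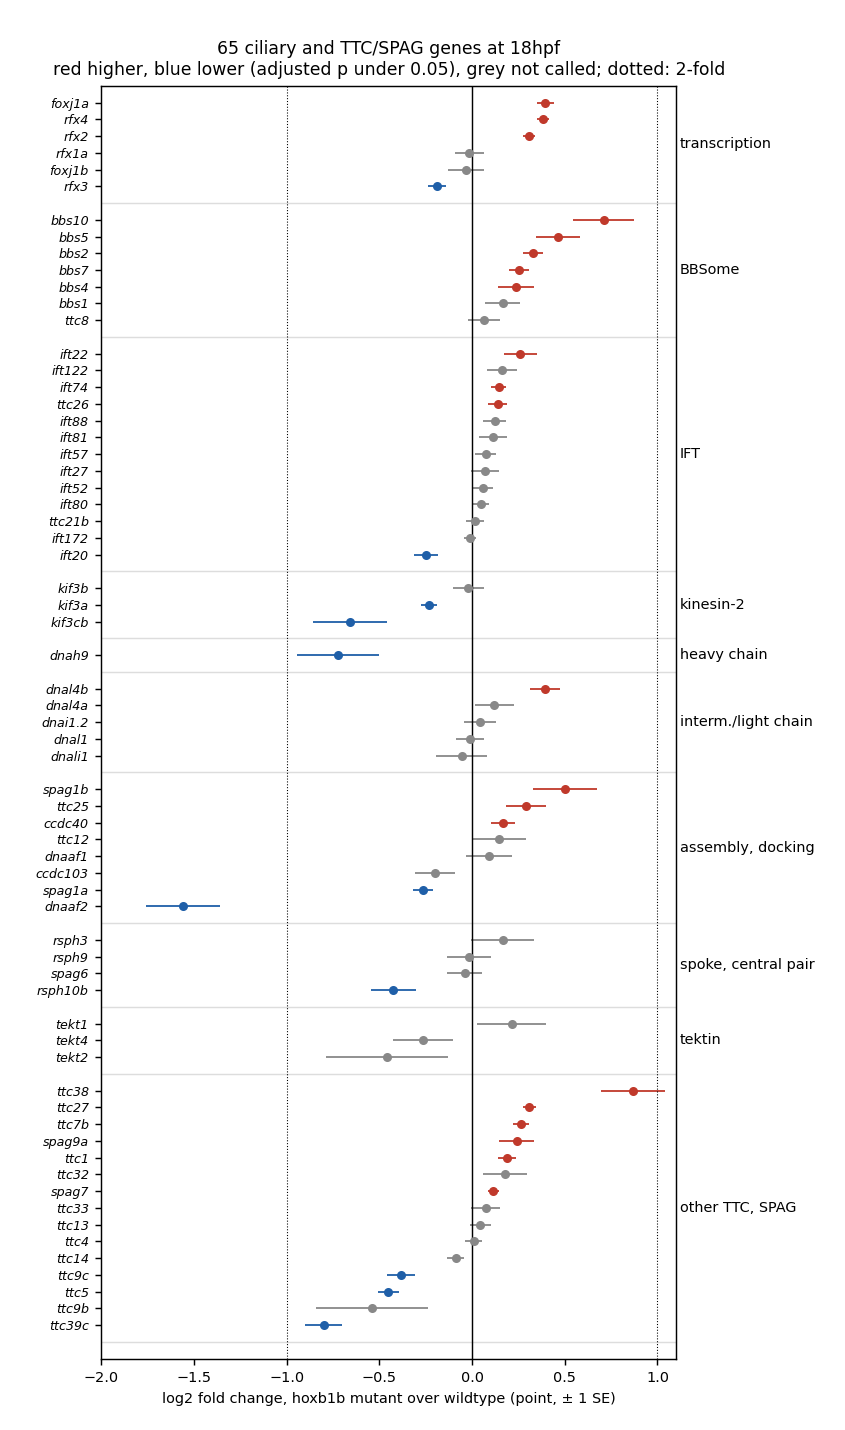
Log2 fold change of each of the 65 members, mutant over wildtype, with bars of 1 SE, grouped by role; red points were called higher and blue points lower at an adjusted p under 0.05, and dotted lines mark a 2-fold change. Only *dnaaf2* lies beyond 2-fold, at -1.56, and the 7 genes of the BBSome group all lie above 0.

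The transcription factors did not move in one direction. Of the 6 listed, 3 rose, 1 fell and 2 did not pass the test. The share called was 66.7%, near the 66.2% of all tested genes. *foxj1a*, the forkhead factor that drives motile cilia in the Kupffer's vesicle, floor plate and pronephros of zebrafish, stood at 31.5, 34.7 and 34.3 CPM in the wildtype libraries and 41.7, 45.3 and 44.6 CPM in the mutant libraries. Every mutant library lay above every wildtype library. The log2 fold change was 0.40 (SE 0.05, adjusted p = 1.01e-08 from edgeR), and leaving out any one library kept it from 0.35 to 0.43. Its paralogue *foxj1b*, also a motile cilium factor, stood at 5.80, 6.35 and 6.05 CPM in wildtype and 5.56, 5.99 and 6.15 CPM in mutant libraries. The genotypes overlapped, with a log2 fold change of -0.03 (SE 0.10, adjusted p = 0.80).

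*rfx2*, which zebrafish need for cilia of the Kupffer's vesicle, had 102, 102 and 109.8 CPM in wildtype and 131, 128 and 128 CPM in mutant libraries (log2 fold change 0.31, SE 0.03, adjusted p = 7.34e-10). *rfx4*, a neural Rfx factor in the mouse, had 82.4, 80.3 and 78.6 CPM in wildtype and 101, 109 and 104 CPM in mutant libraries (log2 fold change 0.38, SE 0.03, adjusted p = 2.15e-11). Both genes were higher in each of the mutant libraries. *rfx3*, which acts in nodal cilia of the mouse, went the other way. It had 28.5, 30.1 and 29.3 CPM in wildtype and 25.0, 26.4 and 25.5 CPM in mutant libraries (log2 fold change -0.19, SE 0.05, adjusted p = 0.00104). *rfx1a* stood at 9.27 ± 0.124 and 9.16 ± 0.474 CPM (SD, n = 3 each), with an adjusted p of 0.889. The counts of *rfx3* were fractional in every library and those of *rfx4* in 4 of the 6, so reads shared with other sequences entered them.

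**Figure D2:**
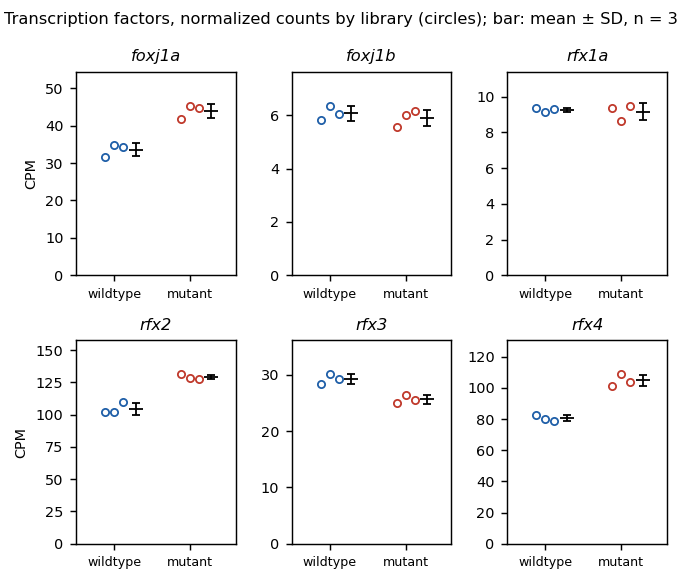
Normalized counts (CPM, linear axes from 0) of the *foxj1* and *rfx* genes in each library (circles; blue wildtype, red mutant), with the mean and SD of 3 libraries beside them. The mutant circles lie above the wildtype circles for *foxj1a*, *rfx2* and *rfx4*, below them for *rfx3*, and among them for *foxj1b* and *rfx1a*.

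The differences between these factors were tested as ratios within a library, which do not depend on the scaling of libraries. The log2 ratio of *foxj1a* to *foxj1b* was 2.47 ± 0.0316 in wildtype and 2.9 ± 0.0306 in mutant libraries (SD, n = 3 each), higher by 0.43 in the mutants. The ratio of *rfx2* to *rfx3* was higher by 0.50 and that of *rfx4* to *rfx3* by 0.57. Each ratio separated the genotypes completely, with a two-sided exact permutation p of 0.1, the lowest value possible for 3 against 3, and 0.12 after Benjamini-Hochberg adjustment over the 6 pairs of genes compared. All 6 pairs were chosen after the values were seen. For *rfx2* and *rfx4* against *rfx3*, the separation follows from opposite changes of genes whose libraries did not overlap, so it adds no support. For *foxj1a* against *foxj1b*, the gap between genotypes in *foxj1a* was wider than the whole spread of *foxj1b*. That separation therefore follows from the values of *foxj1a* and adds no support either.

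The BBSome group pointed one way. It held 6 subunits (*bbs1*, *bbs2*, *bbs4*, *bbs5*, *bbs7* and *ttc8*, which encodes the subunit Bbs8) and *bbs10*, a chaperonin-like gene that helps to assemble the complex. Of the 7 genes, 5 rose and none fell (0 lower in edgeR and in DESeq2, and 0 lower in edgeR at an unadjusted p under 0.05). Over all tested genes, 32.6% rose and 33.6% fell. The share called in either direction, 71.4%, was near the 66.2% of all tested genes. All 7 genes had log2 fold changes above 0, with a median of 0.25. Their summed level was between 66.8 and 68.7 CPM in wildtype and between 80.1 and 84.7 CPM in mutant libraries. *bbs2* had 20.8, 19.3 and 20.7 CPM in wildtype and 24.1, 25.7 and 26.2 CPM in mutant libraries (log2 fold change 0.33, SE 0.05, adjusted p = 5.52e-06). *bbs7* had 20.1, 20.3 and 19.8 CPM in wildtype and 22.9, 25.3 and 23.6 CPM in mutant libraries (log2 fold change 0.25, SE 0.05, adjusted p = 0.000177). No mutant library of either gene fell within the wildtype range. *bbs2* overlaps *nup93* in the RefSeq annotation, and *nup93* changed by 0.28 (adjusted p = 7.45e-11).

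*bbs5* stood at 5.21, 4.19 and 4.41 CPM in wildtype and 7.26, 6.72 and 5.44 CPM in mutant libraries (log2 fold change 0.46, SE 0.12, adjusted p = 0.00116). *bbs10* stood at 2.30, 2.78 and 1.64 CPM in wildtype and 3.04, 3.79 and 4.12 CPM in mutant libraries. The mutant libraries were all higher, by a log2 fold change of 0.71 (SE 0.16, adjusted p = 0.000388), or from 0.55 to 0.89 when any one library was left out. *bbs10* rests on 32 to 63 counts in wildtype and 59 to 122 counts in mutant libraries, so its size is known less well than that of *bbs2*. *bbs4* changed by 0.24 (adjusted p = 0.0346) and lost the call in DESeq2 (adjusted p = 0.134), without wildtype replicate 1 (0.16, adjusted p = 0.195), without mutant replicate 1 (adjusted p = 0.0917) and without mutant replicate 3. *bbs1* had log2 fold changes of 0.16 (SE 0.09, adjusted p = 0.128) and *ttc8* of 0.06 (SE 0.09, adjusted p = 0.535), and their libraries overlapped.

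**Figure D3:**
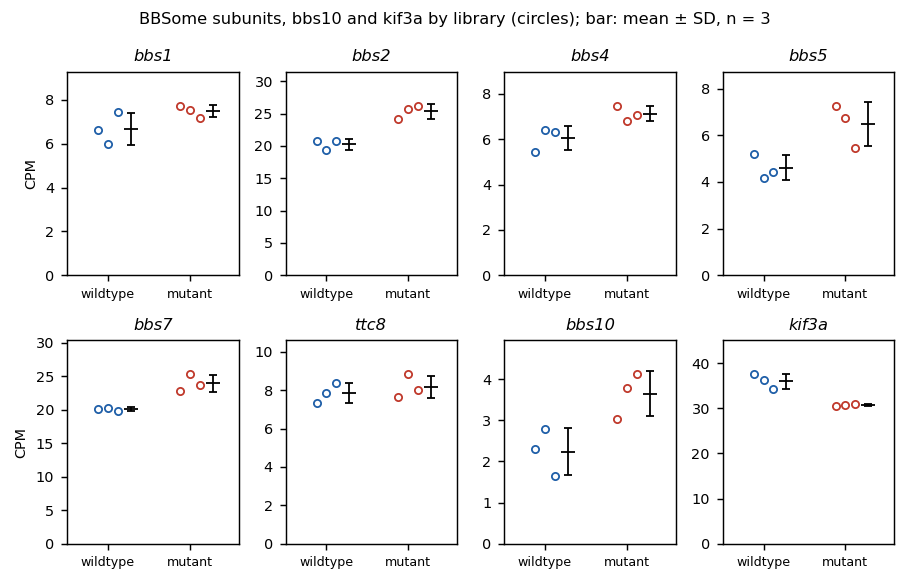
Normalized counts (CPM, linear axes from 0) of the 6 BBSome subunits, of *bbs10* and of the kinesin gene *kif3a* in each library (circles; blue wildtype, red mutant), with the mean and SD of 3 libraries. Mutant circles lie above all wildtype circles for *bbs2*, *bbs4*, *bbs5*, *bbs7* and *bbs10*, and below them for *kif3a*.

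Intraflagellar transport genes moved little. Of the 13 members, 3 rose, 1 fell and 9 did not pass the test, so 30.8% were called, beside 66.2% of all tested genes. The log2 fold changes of the 13 lay between -0.25 and 0.26 with a median of 0.07. *ift172*, a subunit of the anterograde IFT-B complex, had 61.3, 62.1 and 60.0 CPM in wildtype and 61.7, 58.9 and 61.4 CPM in mutant libraries. Its log2 fold change was -0.01 (SE 0.03, adjusted p = 0.783). The retrograde IFT-A gene *ttc21b* was also within the spread, at 36.5 ± 1.8 and 36.8 ± 2.52 CPM (SD, n = 3 each), as was the IFT-B gene *ift80*, at 35.1 ± 1.21 and 36.4 ± 0.832 CPM (SD, n = 3 each).

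Among the IFT-B genes, *ift74* rose from 37.4 ± 1.32 to 41.3 ± 0.643 CPM (SD, n = 3 each), and its log2 fold change was 0.14 (SE 0.04, adjusted p = 0.00338). *ift22* changed by 0.26 (adjusted p = 0.0119) and *ttc26*, which encodes Ift56, by 0.14 (adjusted p = 0.0253), and neither passed in DESeq2 (adjusted p = 0.0733 and 0.095). The call of *ift22* was also lost without wildtype replicate 1 and without mutant replicate 3, and that of *ttc26* without wildtype replicate 3, mutant replicate 1 or mutant replicate 2. *ift20*, the IFT-B subunit that also works at the Golgi, had 15.3, 15.6 and 15.0 CPM in wildtype and 13.0, 12.1 and 13.4 CPM in mutant libraries. All mutant libraries were lower, with a log2 fold change of -0.25 (SE 0.07, adjusted p = 0.0016). The IFT-A gene *ift122* had a value of 0.16 (SE 0.08, adjusted p = 0.083).

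Of the 3 kinesin-2 genes, 2 were called lower and *kif3b* did not pass the test. The share called was 66.7%, beside 66.2% of all tested genes. *kif3a*, a motor subunit of anterograde transport, had 37.5, 36.2 and 34.2 CPM in wildtype and 30.4, 30.8 and 30.8 CPM in mutant libraries. The mutant libraries all lay lower, with a log2 fold change of -0.23 (SE 0.04, adjusted p = 5.05e-05). *kif3cb*, of the Kif3c type that is known from mammalian neurons, had 1.96, 1.94 and 2.00 CPM in wildtype and 0.875, 1.38 and 1.38 CPM in mutant libraries (log2 fold change -0.66, SE 0.20, adjusted p = 0.00484). *kif3b*, the partner of Kif3a, had 9.52 ± 0.239 and 9.49 ± 1.02 CPM (SD, n = 3 each), and its log2 fold change was -0.02 (SE 0.09, adjusted p = 0.848). Leaving out any one library gave *kif3b* values from -0.08 to 0.08. The log2 ratio of *kif3b* to *kif3a* differed by 0.22 between genotypes, with overlapping libraries (two-sided exact permutation p = 0.2, also after adjustment over the 6 pairs). This pair, too, was chosen after the values were seen.

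Genes of the motility apparatus changed in both directions. The largest change of any member was in *dnaaf2*, known as kintoun, which helps to preassemble dynein arms in the cytoplasm. It had 2.39, 2.38 and 3.03 CPM in wildtype and 0.772, 0.905 and 0.912 CPM in mutant libraries, from 54.1 to 59 counts against 15 to 27. The mutant libraries all lay below the wildtype libraries. The log2 fold change was -1.56 (SE 0.20, adjusted p = 7.79e-08 from edgeR), so the level was 2.95-fold higher in wildtype, and leaving out any one library gave -1.62 to -1.45. The other preassembly genes went less far. *spag1a*, whose human counterpart acts in dynein arm assembly, fell from 24.6 ± 0.864 to 20.3 ± 1.01 CPM (SD, n = 3 each), and its log2 fold change was -0.27 (SE 0.05, adjusted p = 9.27e-05). *dnaaf1* had 4.37 ± 0.6 and 4.66 ± 0.545 CPM (SD, n = 3 each) and an adjusted p of 0.53.

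*spag1b*, the paralogue of *spag1a*, had 1.66, 2.25 and 1.59 CPM in wildtype and 2.52, 2.37 and 2.87 CPM in mutant libraries (log2 fold change 0.50, SE 0.17, adjusted p = 0.0115). *ttc25*, a docking factor of the outer dynein arm, changed by 0.29 (adjusted p = 0.0192), and *ccdc40*, part of the ruler that spaces the inner arms and the nexin link, by 0.17 (adjusted p = 0.0252). None of these 3 calls was kept in DESeq2 (adjusted p = 0.0667, 0.0973 and 0.107). Of the 8 assembly and docking genes, 3 were higher and 2 lower in edgeR (62.5%, beside 66.2% of all tested genes). DESeq2 gave 0 higher and 2 lower in the group, and it called 55.5% of all tested genes. The calls of *spag1b* and *ttc25* were also lost without wildtype replicate 1, without wildtype replicate 3 or without mutant replicate 3, and that of *ccdc40* without wildtype replicate 3 or without mutant replicate 2. The log2 ratio of *spag1b* to *spag1a* was -3.77 ± 0.315 in wildtype and -2.98 ± 0.117 in mutant libraries (SD, n = 3 each). It was higher by 0.79 in the mutants, without overlap (two-sided exact permutation p = 0.1, adjusted 0.12). That separation follows from the opposite changes of both genes, whose libraries did not overlap, so it adds no support. *ccdc103*, needed to attach dynein arms, had a value of -0.20 (SE 0.11, adjusted p = 0.107), and *ttc12*, a dynein assembly gene in humans, of 0.15 (SE 0.15, adjusted p = 0.389).

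Of the arms themselves, a single heavy chain gene was listed. *dnah9*, of the outer arm, had 1.28, 1.76 and 1.64 CPM in wildtype and 0.824, 0.905 and 1.05 CPM in mutant libraries (log2 fold change -0.72, SE 0.22, adjusted p = 0.00558). The mutant libraries all lay lower, on 16 to 31 counts against 30 to 40. *dnal4b*, a dynein light chain gene, rose from 9.07 ± 1.03 to 11.9 ± 0.446 CPM (SD, n = 3 each), and its log2 fold change was 0.39 (SE 0.08, adjusted p = 0.000119). Its paralogue *dnal4a* had 5.49 ± 0.468 and 6.07 ± 0.667 CPM (SD, n = 3 each), with an adjusted p of 0.329. The ratio of *dnal4b* to *dnal4a* was higher by 0.26 in the mutants, without overlap (two-sided exact permutation p = 0.1, adjusted 0.12). Like the others, the pair was chosen after the values were seen. The outer arm chains *dnai1.2* and *dnal1* and the inner arm chain *dnali1* had log2 fold changes of 0.04, -0.01 and -0.06, with SEs from 0.08 to 0.14 and overlapping libraries.

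In the radial spokes and central pair, *rsph10b* fell, and *rsph3*, *rsph9* and the central pair gene *spag6* did not pass the test, with values of 0.16, -0.02 and -0.04. The share called was 25% of the 4 genes, beside 66.2% of all tested genes. *rsph10b*, a spoke gene, had 5.89, 4.85 and 5.38 CPM in wildtype and 3.35, 4.26 and 4.25 CPM in mutant libraries (log2 fold change -0.42, SE 0.12, adjusted p = 0.00268). Its counts were fractional in every library, and it overlaps *dlgap5*, which had a value of -0.03 (adjusted p = 0.423). The tektins, filament proteins within the doublet microtubules, were measured with less precision. *tekt1*, *tekt2* and *tekt4* had values of 0.21 (SE 0.19), -0.46 (SE 0.33) and -0.27 (SE 0.16), and none of the 3 passed the test in edgeR or DESeq2 (0 with an unadjusted p under 0.05). Over all tested genes, edgeR called 66.2% and DESeq2 55.5%.

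**Figure D4:**
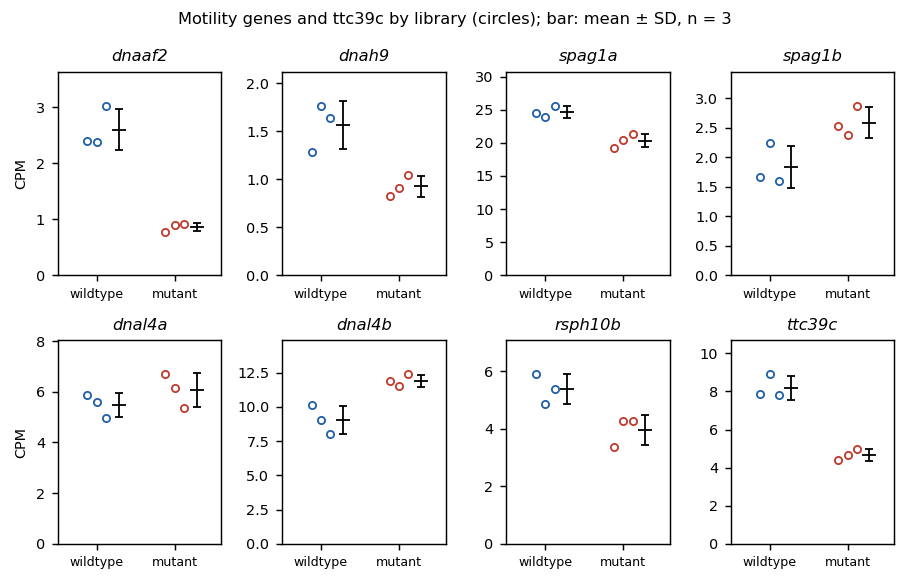
Normalized counts (CPM, linear axes from 0) of 7 motility genes and of *ttc39c* in each library (circles; blue wildtype, red mutant), with the mean and SD of 3 libraries. *dnaaf2*, *dnah9*, *spag1a*, *rsph10b* and *ttc39c* have all mutant circles below the wildtype circles, and *spag1b* and *dnal4b* have them above.

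The 15 TTC and SPAG genes without an assigned ciliary role gave 6 higher and 3 lower calls (60%, beside 66.2% of all tested genes). *ttc39c*, an uncharacterized tetratricopeptide repeat gene, had 7.85, 8.90 and 7.79 CPM in wildtype and 4.38, 4.65 and 4.96 CPM in mutant libraries. It was lower in every mutant library, with a log2 fold change of -0.80 (SE 0.10, adjusted p = 4.61e-08). *ttc38* had 1.66, 1.94 and 1.59 CPM in wildtype and 2.99, 3.92 and 2.70 CPM in mutant libraries (log2 fold change 0.87, SE 0.17, adjusted p = 6.54e-05). Without mutant replicate 3 it stood at 1.01 and passed the 2-fold limit, which made 2 members called by that rule. *ttc5*, whose human counterpart takes part in the autoregulation of tubulin mRNA, fell from 27.0 ± 0.889 to 19.7 ± 1.66 CPM (SD, n = 3 each), and its log2 fold change was -0.45 (SE 0.06, adjusted p = 6.45e-08). *ttc27* rose from 49 ± 0.603 to 60.7 ± 0.727 CPM (SD, n = 3 each), and its log2 fold change was 0.31 (SE 0.04, adjusted p = 9.3e-09). *ttc7b*, *ttc1*, *spag9a* and *spag7* were called higher by 0.26 or less, and *ttc9c* lower at -0.38. The call of *spag9a*, a scaffold gene of JNK signaling, was lost in DESeq2 (adjusted p = 0.0875), and without wildtype replicate 1 or 3 or without mutant replicate 1 or 2, and its libraries overlapped. *ttc4*, *ttc13*, *ttc14*, *ttc32* and *ttc33* had values between -0.09 and 0.18, and *ttc9b* of -0.54 (SE 0.30, adjusted p = 0.116).

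What could be resolved depended on depth. The median SE was 0.171 for the 17 members under 5 CPM, 0.0861 for the 26 from 5 to 20 CPM and 0.0465 for the 22 at 20 CPM and above. Of these, 7, 10 and 15 were called. The share of all tested genes called at each level is not given, so these counts are not read as a result about the members. For the 33 members not called, an interval of 1.96 SE on either side of the log2 fold change was taken. This normal approximation is somewhat narrower than a 95% interval from the edgeR test. It stayed within 0.5 of 0 in 28 and within 1 in 31, the exceptions being *tekt2* and *ttc9b*. With an assumed coefficient of variation of 10% between pools of embryos, 17 members were called, against 34.6% of all tested genes. With 20%, 3 were called (*dnaaf2*, *ttc38* and *ttc39c*), against 12.7%. These 2 settings were chosen after seeing the data.

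Other ciliary genes, listed by role under symbols outside the rule, also gave mixed directions. The share called in either direction was 46.2% for other motility genes, 75% for other IFT and kinesin-2 genes, 72.2% for BBS assembly and traffic genes, 60% for transition zone genes and 65% for multiciliated cell genes, beside 66.2% of all tested genes. The deposited table held 8 of 18 listed symbols for other IFT and kinesin-2 and 18 of 27 for BBS assembly and traffic. It held 26 of 55 for the transition zone, 20 of 31 for multiciliated cells and 15 of 28 for left-right genes. Of 86 symbols listed for other motility genes it held 53, and symbols absent from it were not examined. Of 52 other motility genes tested, 13 were higher and 11 lower, with a median log2 fold change of 0.02. *ribc1*, which encodes a protein inside the doublet microtubules, was the single gene of that list past 2-fold. It had 5.08, 4.80 and 5.79 CPM in wildtype and 1.44, 1.51 and 1.01 CPM in mutant libraries, all lower, with a log2 fold change of -2.01 (SE 0.16, adjusted p = 4.86e-12). *spef2*, a central pair gene, fell by 0.66 on the log2 scale (SE 0.13, adjusted p = 5.43e-05). Of 8 other IFT and kinesin-2 genes, 2 were higher and 4 lower, with a median of -0.25. The lower genes included *kifap3a*, the accessory subunit of the kinesin-2 motor, at -0.29 (SE 0.06, adjusted p = 0.000102).

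Of 18 genes of BBS assembly, Arl GTPases and ciliary membrane traffic, 9 were higher and 4 lower (median 0.22). *bbip1*, a further BBSome subunit, stood at 0.24 and *arl6*, the GTPase that recruits the complex to membranes, at 0.31, both called higher, although the libraries of *bbip1* overlapped. Against this, the chaperonin gene *mkks*, which acts with *bbs10*, stood at -0.38 and was called lower, although its libraries overlapped too. These 3 genes were named after their values were seen. Of 25 transition zone and basal body genes, 12 were higher and 3 lower (median 0.14), led by *nek8*, a kinase of the inversin compartment, at 0.62 (SE 0.11, adjusted p = 1.96e-05). Of 20 genes of multiciliated cells and centriole amplification, 8 were higher and 5 lower (median 0.01). The Notch ligand gene *jag2b* rose from 118 ± 3.39 to 168 ± 5.55 CPM (SD, n = 3 each).

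Wildtype libraries held only 1 to 3 counts of the left-right gene *ndr2*, and mutant libraries 10 to 19, too few for a fold change. Of the 13 other left-right genes tested, 9 were higher and 1 lower, and 5 of the 9 were past 2-fold. With *ndr2*, 78.6% of the list were called in either direction, beside 66.2% of all tested genes. Over all tested genes, 32.6% were higher and 33.6% lower, and 1.7% were higher past 2-fold. The median log2 fold change of these 13 left-right genes was 0.59, beside 0.07 for the ciliary genes. *dand5*, which encodes the Nodal inhibitor made beside the Kupffer's vesicle and reduced by its flow, had 2.9, 3.79 and 2.97 CPM in wildtype and 9.42, 8.70 and 8.47 CPM in mutant libraries. *spaw*, the left-sided Nodal ligand gene, had 2.30, 1.68 and 1.85 CPM in wildtype and 5.77, 6.59 and 6.08 CPM in mutant libraries. Both were higher in each mutant library, with log2 fold changes of 1.45 (SE 0.11, adjusted p = 2.62e-12) and 1.66 (SE 0.13, adjusted p = 9.01e-12). The Nodal inhibitors diverged, with *lft1* at 1.33 (SE 0.06, adjusted p = 9.01e-17) and *lft2* at -0.90 (SE 0.11, adjusted p = 5.67e-08). *gdf3* and *foxh1*, a Nodal partner ligand and a Nodal effector, rose by 1.21 and 1.02. *pkd2*, a ciliary calcium channel gene needed to read the flow, had a value of 0.15 (SE 0.06, adjusted p = 0.0397), and its call was lost in DESeq2 (adjusted p = 0.114) and without wildtype replicate 3, mutant replicate 1 or mutant replicate 2. Counts of whole embryos do not show on which side a transcript lies.

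**Figure D5:**
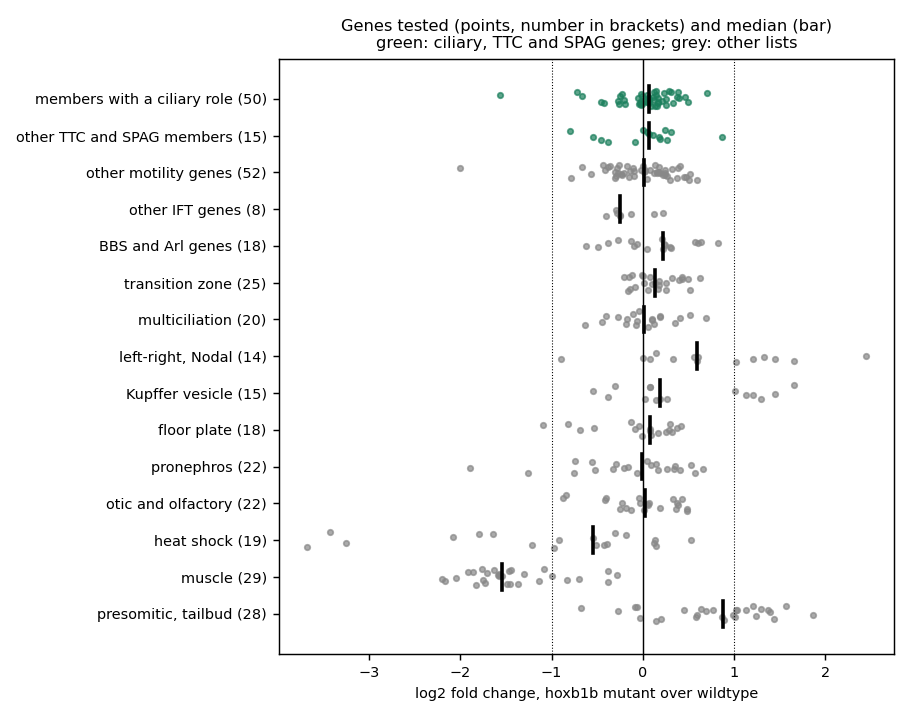
Log2 fold change of each tested gene (points), mutant over wildtype, in the ciliary, TTC and SPAG genes (green) and in other lists (grey), with the median of each list as a bar and dotted lines at 2-fold. The ciliary genes lie close to 0 (median 0.07), whereas the muscle list lies below 0 (median -1.54) and the presomitic and tailbud list above it (median 0.88).

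Genes of other tissues and of developmental age moved with genotype at the same time. All 29 muscle differentiation genes were lower in the mutants, with a summed level between 29120 and 29610 CPM in wildtype and between 11580 and 11820 CPM in mutant libraries. Of 28 presomitic mesoderm and tailbud genes, 23 were higher and 3 lower, and their sum went from between 1057 and 1073 CPM to between 1482 and 1492 CPM. Of 19 heat shock genes, 14 were lower and 4 higher, and 7 fell past 2-fold. The level in wildtype was 12.8-fold higher for *hsp70.1*, 10.7-fold for *hsp90aa1.2* and 9.54-fold for *hsp70l*, all with fractional counts in every library. The summed level was 10030 to 10130 CPM in wildtype and 7688 to 7793 CPM in mutant libraries, most of it from *hspa8*, at 6221 ± 33.8 and 5496 ± 48.9 CPM (SD, n = 3 each). The share called in either direction was 100% for muscle, 92.9% for presomitic and tailbud and 94.7% for heat shock genes, beside 66.2% of all tested genes. In bulk RNA, fewer cells of a type and less RNA per cell cannot be told apart.

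Among tissues with motile cilia, 9 of 15 Kupffer's vesicle genes were higher and 3 lower, at summed levels of 1422 to 1429 and 1594 to 1625 CPM. The largest part of both sums came from *cx43.4*, at 693 ± 6.1 and 789 ± 9.35 CPM (SD, n = 3 each). Of the 6 vesicle genes past 2-fold, *dand5*, *spaw* and *gdf3* are also in the left-right list, and *tbx16* (1.13) and *fgf8a* (1.01) in the presomitic and tailbud list. The remaining one was *noto*, at 1.29. The 3 called lower were *cftr*, *itgav* and *atp6ap2*, at -0.54, -0.38 and -0.30. Every mutant library of these 3 genes lay below every wildtype library. The vesicle genes *sox17* and *sox32* were too low to be tested. The share called in either direction was 80% for vesicle, 66.7% for floor plate, 77.3% for pronephros and 72.7% for otic and olfactory genes. It was 66.2% over all tested genes. Of 18 floor plate genes, 7 were higher and 5 lower (sums of 517 to 526 and 605 to 614 CPM). *sulf1*, called higher, was the largest single part of both sums, at 165 ± 6.47 and 220.2 ± 4.01 CPM (SD, n = 3 each). *foxa*, *foxa2*, *sim1a*, *shha*, *ntn1a* and *nkx2.2a* were also called higher, at 0.38, 0.32, 0.30, 0.29, 0.25 and 0.17. *spon1a* fell past 2-fold, at -1.09. *urp2*, *spon2b*, *tal2* and *spon1b* were called lower, at -0.82, -0.69, -0.54 and -0.08. *spon1a*, *spon2b* and *urp2* had mean levels of only 0.82, 0.78 and 0.54 CPM. The libraries of *spon2b* and *spon1b* overlapped. Of 22 pronephros genes, 9 were higher and 8 lower (sums of 991 to 1003 and 898 to 904 CPM). The transport genes *clcnk* and *slc20a1a* fell past 2-fold, at -1.89 and -1.26. Among the 9 called higher, the largest changes were in *hnf1ba*, *wt1a* and *hnf1bb*, at 0.66, 0.58 and 0.53, none past 2-fold. Of 22 otic and olfactory genes, 9 were higher and 7 lower (sums of 1542 to 1571 and 1286 to 1304 CPM). *sparc* alone went from 638 ± 9.17 to 356 ± 2.71 CPM (SD, n = 3 each), a fall about as large as that of the sum. No listed marker that the table holds was at 0 in all libraries, which a table of detected genes ensures. The part of tissue makeup, developmental age or stress in the changes of the ciliary genes was not tested.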

How the data were processed

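Polyadenylated RNA was sequenced as stranded libraries. The values the authors deposited are RSEM estimated counts for each gene in each library, not normalized. The submitters' processing notes list RSEM 1.2.28, DESeq2, FastQC and the builds GRCz10 and danRer7, and the aligner is not given in the sources used here. Columns of the authors' own comparison (adjusted p-value, log2 fold change and fold change as a ratio, deposited beside the counts) were not used.

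Counts were rounded to whole numbers. Fits used edgeR 4.0.16 under R 4.3.3 (filterByExpr, TMM, glmQLFit and glmQLFTest, genotype as the only factor), with Benjamini-Hochberg adjustment over 12471 genes. TMM factors ranged from 0.978 to 1.02. The SE is the log2 fold change divided by the square root of F. Calls used an adjusted p under 0.05, with or without the study's 2-fold limit. The fit was tested on simulated data. DESeq2 1.42.0 was an alternative. The members and gene lists were chosen with earlier results of these data known, and roles were assigned from general knowledge. Genes are named by role: the 4 most abundant and the 4 with the largest change at a mean of at least 1 CPM, every *foxj1* and *rfx* gene, members past 2-fold, and in each other list genes past 2-fold, the 3 with the largest change, and named left-right genes. Members named beyond this were named after their values were seen. So were *shha*, *foxa2*, *sim1a*, *ntn1a*, *nkx2.2a*, *spon1b*, *sulf1*, *tal2*, *urp2*, *spon2b*, *tbx16*, *fgf8a*, *cx43.4*, *hspa8*, *sox17* and *sox32*. The same holds for *cftr*, *itgav*, *atp6ap2*, *hnf1ba*, *wt1a* and *hnf1bb*. *hspb11* was left out of the IFT list, since the symbol names a heat shock gene in zebrafish. Symbols matched RefSeq (GRCz12tu) directly for 62 members and as synonyms for 3. Of the members, 7 overlap another gene of the table there, and 23 had fractional counts in 1 or more libraries, so reads shared with other genes can affect them. No pair of libraries of one genotype agreed within counting noise, so none was treated as a duplicate deposit, which does not show that their pools were separate. One gene of the left-right list is counted in its list but not reported here by name.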

Additional observations from a re-analysis of the deposited data

How the results depend on the processing

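The fits were repeated with 3 other scalings (upper quartile, total counts, and the size factors of DESeq2), with DESeq2 itself, with the expression filter dropped or raised to 10 counts throughout, with counts not rounded, with a replicate block, with other limits on fold and adjusted p, and with any one library left out. No called member changed direction under the 14 alternative fits. Of the 32 called members, 25 were called in all of them and 7 were lost in at least 1. DESeq2 gave 25 calls, 14 higher and 11 lower, beside 55.5% of all tested genes called. An adjusted p under 0.01 also gave 25. With the replicate block 32 members were called, 21 higher and 11 lower, beside 65.4% of all tested genes. The block changed no call among the members. The same replicate numbers do not show a shared source, since the correlation of same-numbered deviations was 0.0647, 0.0431 and -0.0318. These numbers, also used for the block, are those of the sample titles. The column headers number the mutant libraries differently, and pairs with the same header number gave -0.105 and -0.0117. Leaving out a library gave 27 to 32 calls of any size (16 to 21 higher, 11 to 13 lower), 1 to 2 calls past 2-fold (0 to 1 higher, 1 lower), and a median from 0.06 to 0.09. Total count scaling moved the median log2 fold change of the members to 0.12 and that of all tested genes to 0.04. A limit of 1.5-fold called 6 members, 2 higher and 4 lower, against 5.08% and 13.5% of all tested genes, and glmTreat against 1.5-fold called 2, both lower. For glmTreat, the 0.01 limit and the fits without a library, the share of all tested genes is not given, so those counts are not compared with it. With an assumed coefficient of variation of 10%, 17 members were called (10 higher and 7 lower), and with 20%, 3 were called (1 higher and 2 lower). Over 145 genes followed through these fits, members and listed genes not all named above, 36 of 2028 comparisons lost a call, 8 gained one and 0 reversed. This pool holds genes that had no call to lose and listed genes called far past the limit. It therefore does not measure how stable the calls of the members are, for which the counts of the 32 called members are given above. The planned search for promoter motifs was not run.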
